A study of Rattus norvegicus with 6 samples.

Results

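Transcripts of 3 transglutaminase genes, Tgm1, Tgm2 and F13a1, were followed in the hearts of rats given doxorubicin, an anthracycline chemotherapy drug. The genes were taken by symbol, 3 of the 17487 symbols in the count table, and the set was chosen because Tgm1 was higher in every doxorubicin heart. All 3 passed the filter on low counts, which 9205 symbols passed. The animals were 6 adult male Wistar rats, an outbred strain, with 1 heart library each. In the doxorubicin group, 3 rats received 3.75 mg/kg of doxorubicin hydrochloride into the tail vein every week for 4 weeks. In the control group, 3 rats received saline vehicle in the same way. The part of the heart and the interval after the last dose were not stated.

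Transglutaminases are calcium-dependent enzymes that join a glutamine of one protein to a lysine of another, which gives a bond that proteases do not cut easily. Tgm1 is known from skin, where it builds the cornified envelope of keratinocytes. Tgm2, tissue transglutaminase, is made by endothelial cells, fibroblasts, smooth muscle and macrophages, binds fibronectin and integrins outside the cell, and also binds GTP. F13a1 encodes the catalytic A subunit of clotting factor XIII, which crosslinks fibrin after activation by thrombin. It is made by macrophages and megakaryocytes, and the carrier B subunit, F13b, is made in the liver.

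Library totals lay between 2219685 and 3508282 counts. Control library 1 stood apart from the others on the first principal component of log2 CPM, counts scaled to a common library total, at 43.3 against -26.6 to 4.83 for the other 5 libraries. Its summed level of erythroid markers was 2865 CPM, against 361 to 1040 CPM elsewhere, and that of platelet markers 98.5 CPM, against 12.8 to 26.7 CPM. The heart label was checked against cardiomyocyte transcripts: none of the 15 listed markers was at 0, and Tnnt2, cardiac troponin T, had 40202 to 62602 counts in every library. Because the tissue was bulk heart, fewer cells of a type and less RNA per cell cannot be told apart in any value below.

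Tgm1 was the member with the widest gap between the groups. It had 15, 9 and 8 counts in control libraries 1 to 3, which is 5.73, 4.00 and 2.27 CPM after scaling by trimmed mean of M-values (TMM). In doxorubicin libraries 1 to 3 it had 76, 44 and 89 counts, or 24.4, 13.7 and 26.2 CPM. Every doxorubicin value lay above every control value, and the lowest doxorubicin level was 2.40 times the highest control level. Doxorubicin library 2 was the lowest of its group. Control library 3 had the lowest level of all, 2.27 CPM, with an exact Poisson 95% interval of 0.981 to 4.48 CPM. Intervals here cover counting error only, and each one in the control group lay below each one in the doxorubicin group, the nearest being control library 1 (3.21 to 9.45 CPM) and doxorubicin library 2 (9.98 to 18.4 CPM).

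The mean Tgm1 level was 4.00 ± 1.73 CPM with saline and 21.5 ± 6.75 CPM with doxorubicin (SD, n = 3). The fitted log2 fold change, doxorubicin minus control, was 2.45 (SE 0.40), and 5 of the 9205 tested symbols had a larger one. These values chose the gene, so they are a description and no test is given for them. In the 6 fits that left out a library the Tgm1 log2 fold change lay between 2.12 and 2.83. The other 2 members were tested in the same fit across all symbols, edgeR's quasi-likelihood test with Benjamini-Hochberg adjustment over all 9205. Of these 2, 0 were past the adjusted threshold of 0.05 in edgeR or DESeq2, against 0.0543% of all symbols in edgeR, and 1, F13a1, had an unadjusted p under 0.05 in edgeR.

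**Figure D1:**
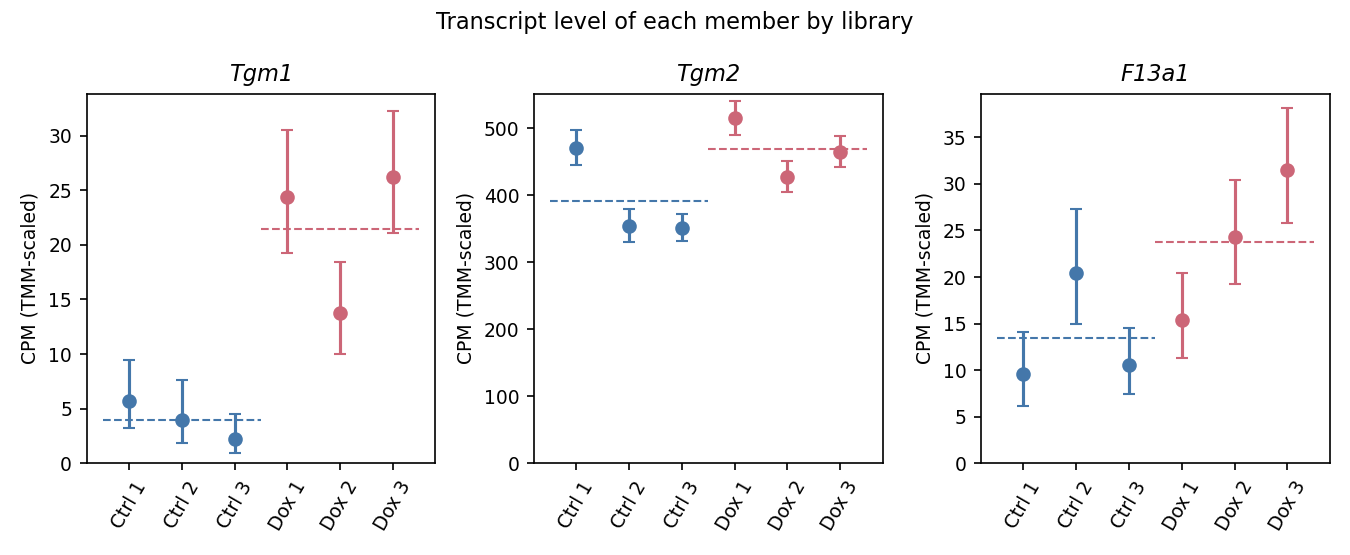
TMM-scaled CPM of Tgm1, Tgm2 and F13a1 (vertical axes, from 0) in the 3 control (Ctrl, blue) and 3 doxorubicin (Dox, red) libraries. Points are libraries, error bars are exact Poisson 95% intervals of the count, and dashed lines are group means. The groups are apart for Tgm1, at 2.27 to 5.73 against 13.7 to 26.2 CPM, and overlap for Tgm2 and F13a1.

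Tgm2 had the most counts of the 3 genes, 797 to 1605 per library, so counting error was small for it. Counts were not divided by transcript length, so levels are compared between groups and not between genes. Tgm2 was at 470, 354 and 351 CPM in control libraries 1 to 3. It was at 515, 427 and 465 CPM in doxorubicin libraries 1 to 3. The groups overlapped through control library 1, which was above doxorubicin libraries 2 and 3. The other 2 control libraries were below all 3 doxorubicin libraries.

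The mean Tgm2 level was 392 ± 68.1 CPM with saline and 469 ± 44.0 CPM with doxorubicin (SD, n = 3). The log2 fold change was 0.26 (SE 0.19, 95% interval of the fit -0.14 to 0.66), with an adjusted p of 0.755 in edgeR's quasi-likelihood test. The interval covers no change and also a rise of up to 0.66 on the log2 scale, so neither is set aside by these 6 libraries. Without control library 1 the log2 fold change was 0.42, with an adjusted p of 0.778 in the edgeR fit and an unadjusted p of 0.0192.

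F13a1 had 25, 46 and 37 counts in control libraries 1 to 3, or 9.55, 20.4 and 10.5 CPM. It had 48, 78 and 107 counts in doxorubicin libraries 1 to 3, or 15.4, 24.3 and 31.5 CPM. The groups overlapped because control library 2 was above doxorubicin library 1. Libraries of the same group differed by up to 2.14 times in control and 2.05 times in doxorubicin.

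The mean F13a1 level was 13.5 ± 6.03 CPM with saline and 23.8 ± 8.08 CPM with doxorubicin (SD, n = 3). The log2 fold change was 0.84 (SE 0.35, 95% interval 0.10 to 1.58). Its unadjusted p was 0.0294 and its adjusted p was 0.544 in edgeR's quasi-likelihood test, so it did not pass. An unadjusted p under 0.05 was found for 8.1% of all tested symbols, 4.0% higher and 4.11% lower in doxorubicin. Without doxorubicin library 3 the log2 fold change was 0.59, and without control library 2 it was 1.25. The unadjusted p in the 6 edgeR fits that left out a library ran from 0.00381 to 0.127.

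As a share of the counts of the 3 genes together, Tgm1 took 1.18%, 1.06% and 0.625% in control libraries 1 to 3. It took 4.40%, 2.95% and 5.02% in doxorubicin libraries 1 to 3. The nearest of these were control library 1, with a Wilson 95% interval of 0.716% to 1.94%, and doxorubicin library 2, with 2.20% to 3.94%. The share of F13a1 overlapped between the groups, at 1.97% to 5.40% in control and 2.78% to 6.04% in doxorubicin. Tgm2 made up 93.5% to 96.9% of these counts in control and 88.9% to 92.8% in doxorubicin libraries. These shares do not depend on the scaling between libraries. They restate the Tgm1 counts for which the set was chosen, so they are a description only. The shares of the 3 genes make up the whole, so larger shares of Tgm1 and F13a1 lower that of Tgm2.

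Looked for beside the members were 7 genes, the other family genes and F13b, the carrier subunit gene, which is not itself a transglutaminase. Of these, 4 were in the table, Tgm3, Tgm4, Epb42 and F13b, and Tgm5, Tgm6 and Tgm7 were not analysed here. Tgm4, known as the prostate enzyme, had 12 to 25 counts per library and was the 1 that passed the filter. It was at 9.55, 5.33 and 7.10 CPM in control and 6.42, 5.30 and 3.54 CPM in doxorubicin libraries 1 to 3. Its log2 fold change was -0.53 (SE 0.41; edgeR adjusted p 0.773), and the groups overlapped. It was -0.30 without control library 1 and -0.32 without doxorubicin library 3. Tgm3, an epidermal and hair follicle enzyme, had 0 to 5 counts per library. Epb42, the red cell membrane member that lacks enzyme activity, had 2 counts in each control library and 1, 0 and 1 in doxorubicin libraries 1 to 3. F13b, the factor XIII carrier subunit, had 0 counts in 5 libraries and 1 in doxorubicin library 3. A count of 0 allows up to 3 counts, or 0.852 to 1.33 CPM depending on the library, so changes in these 3 genes were not detectable at this depth.

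The genes next to each member on the RefSeq annotation were looked at, since the use of strand in the counting was not stated. Names and order come from the GRCr8 assembly, which differs from the build of the counts, so positions are not given. Tgm1 lies between Tinf2, a telomere protein gene, and Rabggta, a subunit of the Rab geranylgeranyl transferase. Rabggta had 81 to 168 counts per library and a log2 fold change of -0.0016 (SE 0.20). Tinf2 had 15 to 44 counts (log2 fold change 0.45; edgeR adjusted p 0.766). Its doxorubicin values lay only just above its control values, with a lowest of 12.52 CPM against a highest of 12.44 CPM. Over all tested symbols 6.39% lay wholly higher in doxorubicin. Both fold changes were smaller than the 2.45 of Tgm1 on the same scale. Ly86, on one side of F13a1, had 4 to 11 counts per library and was not tested. An annotated gene, Tpi1l2, overlaps F13a1 and was not analysed here. The nearest annotated genes on both sides of Tgm2 are long noncoding RNAs without values here.

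The 5 genes whose levels followed each member most closely were found over all 6 libraries. Likeness was the root mean square difference between log2 CPM values after subtraction of each gene's own mean, against 8606 other tested symbols for Tgm1. The candidates were symbols with a mean of at least 5 CPM. This measure includes the group difference and carries no test. The nearest gene to Tgm1 was Tgfb2, the ligand transforming growth factor beta 2, with a difference of 0.297 on the log2 scale, against a median of 1.24 over all candidates. After it came Myh7, the beta myosin heavy chain, at 0.366, Ankrd23, a stretch-responsive ankyrin repeat gene, at 0.458, Mdk, the growth factor midkine, at 0.478, and Sfrp1, a secreted Wnt inhibitor, at 0.562.

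Tgfb2 was at 7.25, 8.44 and 2.84 CPM in control libraries 1 to 3 and at 50.7, 20.3 and 41.3 CPM in doxorubicin libraries 1 to 3. As for Tgm1, control library 3 was the lowest of all and doxorubicin library 2 the lowest of its group. Ankrd23 was at 33.5 to 52.4 CPM in control and at 195, 92.4 and 125 CPM in doxorubicin libraries 1 to 3. Mdk went from 5.96 to 12.2 CPM in control to 18.1 to 32.4 CPM in doxorubicin. Doxorubicin library 2 was the lowest of the doxorubicin libraries for all 5 of these genes, and the groups did not overlap for any of them. Over all tested symbols 6.39% lay wholly higher in doxorubicin. The traits shared by these 5 genes follow largely from their choice by likeness to Tgm1, so they are not read as an excess over that share. Myh7 shares close sequence with Myh6, and how reads common to both were counted was not stated.

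Tgm2 and F13a1 had other nearest genes. For Tgm2 these were Hk1, hexokinase 1, at a difference of 0.054, then Fbxo22 at 0.055, P2rx5 at 0.063, Psmd5 at 0.065 and Vps33a at 0.067. Each was higher in control library 1 than in the other 2 control libraries, as Tgm2 was, which follows largely from their choice by likeness. The median difference to Tgm2 over all candidates was 0.345, since a gene that varies little is near to many others. For F13a1 the nearest were Slc35f1 at 0.079, Vcam1, an endothelial adhesion receptor for leukocytes, at 0.139, Zbed4 at 0.173, Cfap70 at 0.176 and Ddr2, a collagen receptor of fibroblasts, at 0.190. Their group means lay between 3.76 and 8.20 CPM in control and between 6.85 and 16.9 CPM in doxorubicin. F13a1 ranked 263rd among the genes nearest to Tgm1, at 0.960, and Tgm2 ranked 697th, at 1.05.

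**Figure D2:**
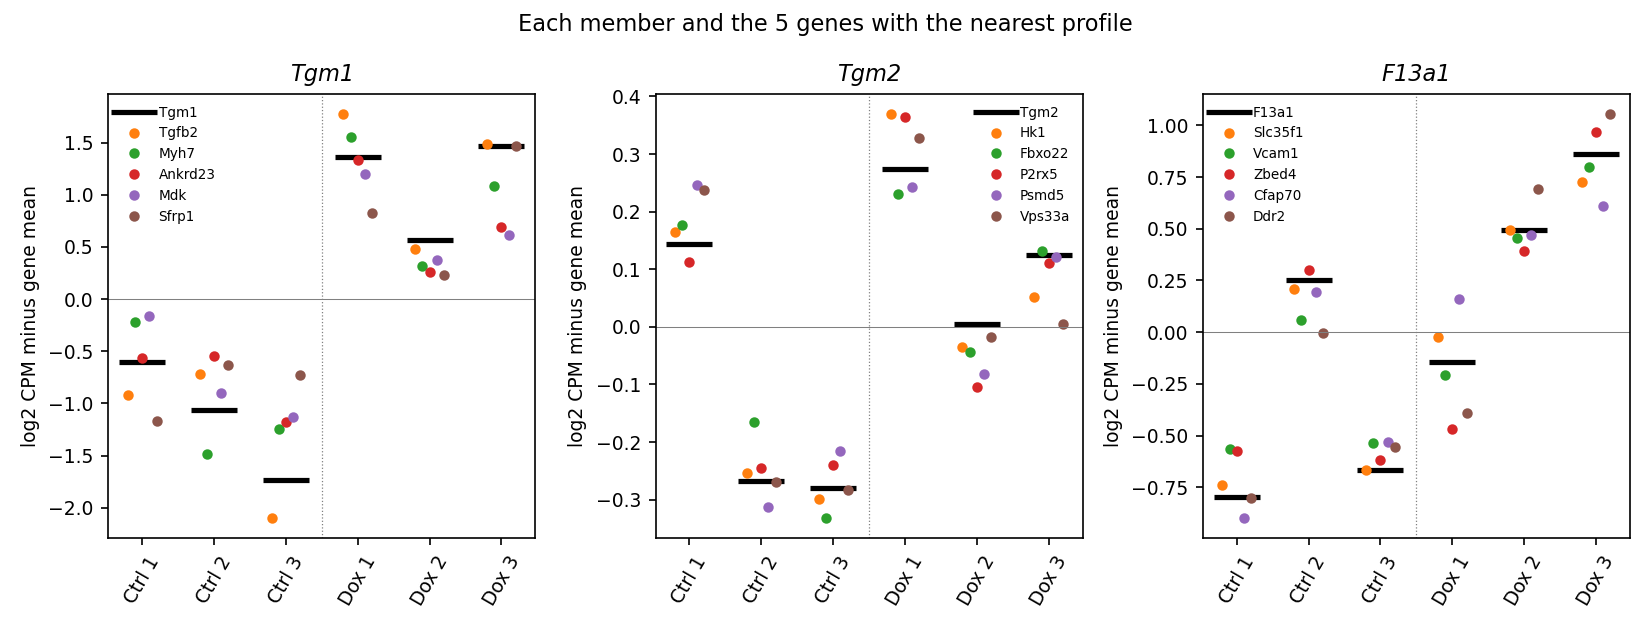
Log2 CPM minus the gene's own mean over the 6 libraries (vertical axes) for each member (black bars) and its 5 nearest genes (coloured points), in control (Ctrl) and doxorubicin (Dox) libraries. In the Tgm1 panel the 5 genes are lowest of the doxorubicin group in library 2. In the F13a1 panel control library 2 lies above the other control libraries. The genes were chosen by likeness to the member, so shared highs and lows follow largely from that choice.

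Genes of the pathways around these enzymes were taken from lists chosen by function. The median log2 fold change of all 9205 tested symbols was 0.02. In the list of known inducers of transglutaminase genes, with their receptors and regulators, 26 of 33 were tested. Of these, 1 rose (0.0217% of all tested symbols did), 0 fell (0.0326% of all did) and the median log2 fold change was 0.07. That median was 0.18 without control library 1 and 0.03 without control library 3. The one that rose was Tgfb2, with a log2 fold change of 2.65 (SE 0.41; edgeR adjusted p 0.0440). It was called in 1 of the 6 fits that left out a library, the one without doxorubicin library 2. This list was written with the result for Tgfb2 known, so the gene is no independent evidence here.

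Among the other genes of the inducer list, Smad7, an inhibitor of TGF-beta signalling, had a log2 fold change of 0.74 (SE 0.25). Smad7 was at 40.1, 41.8 and 35.5 CPM in control and 91.2, 47.4 and 56.6 CPM in doxorubicin libraries 1 to 3. The ligand Tgfb1 was lower in each doxorubicin heart, as were 7.06% of all tested symbols, at 44.5 ± 5.74 against 71.3 ± 23.9 CPM (SD, n = 3). Its log2 fold change was -0.68 (SE 0.24), with 98.9 CPM in control library 1 and 57.3 and 57.7 CPM in the other 2. Il1b, an inflammatory cytokine, had 3 to 21 counts per library and a log2 fold change of 1.31 (SE 0.53). Smad3 and Jun differed by -0.39 (SE 0.19) and 0.30 (SE 0.17) on the log2 scale. The adjusted p-values of these 5 genes lay between 0.400 and 0.689 in edgeR's quasi-likelihood test, so none passed. Il6 was listed at 0 in every library. A 0 here says that no read was counted for a symbol, and how reads shared between annotated features were treated was not stated, so such a 0 is not read as absence of the transcript.

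The cornified envelope list holds the skin proteins that Tgm1 joins and their partners. Of its 25 symbols 16 were in the table, 5 of those had 0 counts throughout (Ivl, Sprr1a, Sprr3, Cnfn and Alox12b), and 7 were tested. Of the 7, 0 passed the adjusted threshold and 1 had an unadjusted p under 0.05 (edgeR) and was higher, as were 4.0% of all symbols, and DESeq2 called 0 as well. The median log2 fold change was 0.20, and without control library 1 it was -0.011. The 1 gene was Ppl, periplakin, a plakin that Tgm1 crosslinks. It was at 1.91, 2.67 and 5.40 CPM in control and at 15.1, 7.80 and 12.1 CPM in doxorubicin libraries 1 to 3, on 5 to 47 counts. Its log2 fold change was 1.74 (SE 0.45; edgeR adjusted p 0.190). Of the 7 tested, 3 lay wholly higher in doxorubicin, Ppl, Aloxe3 and Anxa1, against 6.39% of all symbols. For Anxa1 the highest control value was 64.2 CPM and the lowest doxorubicin value 65.7 CPM. Aloxe3, an epidermal lipoxygenase, was at 8.98 ± 0.633 CPM with saline and 13.4 ± 0.417 CPM with doxorubicin (SD, n = 3), with a log2 fold change of 0.57 (SE 0.29) that did not pass. Anxa1, S100a10, Dsc2 and Tmem45a had log2 fold changes of 0.20, -0.18, 0.21 and -0.24.

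The listed keratinocyte and epithelial markers, of the cells in which Tgm1 is best known, were near 0. Of 14 keratinocyte and epithelial symbols, 13 were in the table and 0 passed the filter. Krt5, Krt14, Krt15, Tp63 (on 6 rows of the count table), Dsg3, Dsc3 and Esrp1 were listed at 0 in every library. These zeros are not read as absence of the transcripts either. The summed level of that list was 0.764 to 2.22 CPM in control and 0 to 2.57 CPM in doxorubicin libraries. Krt8, with 0 to 4 counts per library, was its highest gene, and Krt19, Cldn4 and Cdh1 had at most 3. The keratins Krt1 and Krt10 were held in the cornified envelope list instead. They had 2 to 17 and 4 to 12 counts per library and did not pass the filter. In the mesothelial list Wt1 was at 31.1 ± 7.12 CPM with saline and 25.4 ± 2.98 CPM with doxorubicin (SD, n = 3), Msln and Upk1b had at most 8 counts and Bnc1 was at 0. Wt1, with a log2 fold change of -0.30, was the only mesothelial gene tested and did not pass. Cardiomyocyte markers summed to 150815 to 184632 CPM in control and 141638 to 156034 CPM in doxorubicin libraries. Of the 15 tested, 1 fell (0.0326% of all symbols did), Ryr2, the calcium release channel (log2 fold change -1.62, SE 0.25; edgeR adjusted p 0.0440), and 0 rose (0.0217% of all did). At an unadjusted p under 0.05 in edgeR 5 were lower and 1 higher, against 4.11% and 4.0% of all symbols, and the median log2 fold change was -0.14. The 1 higher was Myh7, with a log2 fold change of 1.94 (SE 0.36; edgeR adjusted p 0.0944). It was at 5269 ± 2641 CPM with saline and 20239 ± 8151 CPM with doxorubicin (SD, n = 3). Its groups did not overlap, and 6.39% of all symbols lay wholly higher. Myh7 was past the threshold without doxorubicin library 2. The lower ones beside Ryr2 were Myh6, the alpha myosin heavy chain (-0.73), Ckm, muscle creatine kinase (-0.68), Mb, myoglobin (-0.59), and Tnni3, cardiac troponin I (-0.45), none of which passed. Actc1, cardiac actin, and Tnnt2 had log2 fold changes of -0.14 and -0.11. Ryr2 was past the threshold in 1 of the 6 fits that left out a library, the one without doxorubicin library 2. It stood on 2 rows of the count table, which were summed, and how reads shared between them were counted was not stated. The part of mesothelial and muscle cells in the Tgm1 difference was not tested.

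**Figure D3:**
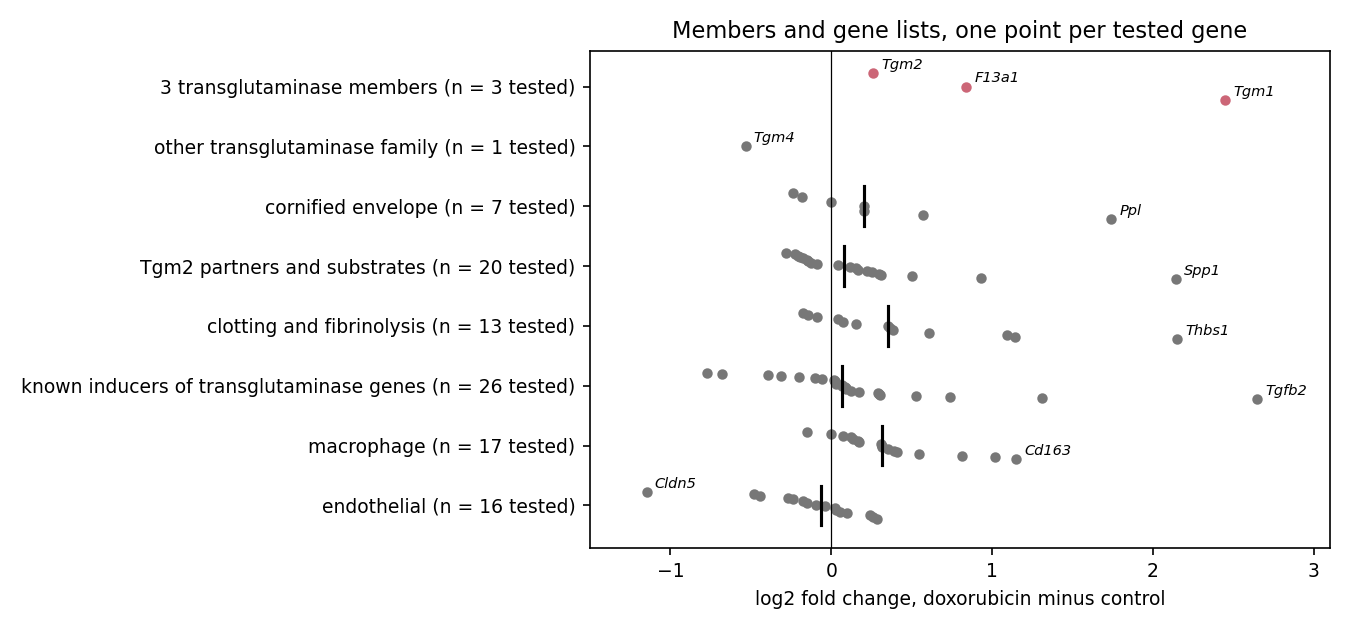
Log2 fold change, doxorubicin minus control (horizontal axis), of the 3 members (red) and of every tested gene of 7 lists (grey points), with a black bar at the median of each list and the gene farthest from 0 named. Tgm1 (2.45) lies to the right of all listed genes but Tgfb2 (2.65), while list medians lie between -0.07 and 0.36 for lists with more than 1 tested gene.

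In the list of Tgm2 partners and substrates, 20 of 25 genes were tested, 0 passed the adjusted threshold and 2 had an unadjusted p under 0.05 in edgeR, both higher (4.0% of all symbols were). The median log2 fold change was 0.08, and 11 of the 20 were above 0, as were 52.1% of all symbols. The median was -0.022 without doxorubicin library 2 and 0.23 without doxorubicin library 3. DESeq2 called 1 of the list, Spp1, where it called 46 of 10265 symbols higher. Spp1, osteopontin, a matrix protein that Tgm2 crosslinks, was at 8.02, 1.78 and 7.10 CPM in control and 35.0, 9.98 and 32.4 CPM in doxorubicin libraries 1 to 3. The Spp1 log2 fold change was 2.14 (SE 0.50; edgeR adjusted p 0.158), and without doxorubicin library 2 it was 2.54 and passed. Sdc4, syndecan 4, a heparan sulfate receptor that binds Tgm2 with fibronectin, was at 38.2 ± 9.31 CPM with saline and 73.2 ± 32.3 CPM with doxorubicin (SD, n = 3). Its groups did not overlap (6.39% of all symbols lay wholly higher), the log2 fold change was 0.93 (SE 0.29) and the edgeR adjusted p was 0.353. S100a4, Itga5, Adgrg1 and Pdia3 had log2 fold changes of 0.50, 0.31, -0.28 and 0.25, and none passed.

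Endothelial markers were read beside Tgm2. Of 18 listed genes 16 were tested, 0 passed, and 3 had an unadjusted p under 0.05 in edgeR, all lower (4.11% of all symbols were): Cldn5, a tight junction gene (log2 fold change -1.15), Fabp4, a fatty acid carrier (-0.44), and Tie1, a receptor (-0.48). DESeq2 called Cldn5. The median log2 fold change was -0.07. Pecam1, Eng and Ptprb, the other abundant ones beside Fabp4, had 0.03, -0.15 and 0.24, and Robo4 was at 0. The list summed to 2974 to 3398 CPM in control and 2425 to 2989 CPM in doxorubicin libraries. Tgm2 was 15.2%, 11.9% and 10.3% of that sum in control libraries 1 to 3 and 17.4%, 14.3% and 19.2% in doxorubicin libraries 1 to 3, so the groups overlapped again through control library 1. Smooth muscle and pericyte markers summed to 1023 to 1264 CPM in control and 952 to 1268 CPM in doxorubicin, and fibroblast markers to 6200 to 6630 CPM and 5631 to 8169 CPM. Of the 11 smooth muscle and 12 fibroblast genes tested 0 passed in edgeR, and DESeq2 called 0. At an unadjusted p under 0.05 in edgeR there were 0 and 1, against 8.1% of all symbols, so the 1 is not read as an excess. The 1 was Postn, a matrix protein of activated fibroblasts, with a log2 fold change of 1.27 (SE 0.45; edgeR adjusted p 0.443). The most abundant fibroblast genes, Gsn, Col3a1, Dcn and Col1a2, had log2 fold changes of 0.08, -0.31, 0.29 and 0.01. Those of smooth muscle and pericytes, Smtn, Abcc9, Acta2 and Rgs5, had -0.32, 0.35, -0.44 and 0.32. The part of these cells in the Tgm2 values was not tested.

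In the clotting and fibrinolysis list, which holds the pathway of F13a1, 13 of 27 genes were tested. Of these 0 passed and 2 had an unadjusted p under 0.05 in edgeR, both higher (4.0% of all symbols were). Log2 fold changes were above 0 for 10 of the 13 (52.1% of all symbols), with a median of 0.36. That median was 0.15 without control library 1, 0.17 without doxorubicin library 1 and 0.21 without doxorubicin library 3. DESeq2 called 2, among them Thbs1, where it called 46 of 10265 symbols higher. Thbs1, thrombospondin 1, a matrix and platelet protein that activates latent TGF-beta, was at 3.05, 5.33 and 3.98 CPM in control and 30.8, 8.74 and 15.3 CPM in doxorubicin libraries 1 to 3. Its log2 fold change was 2.15 (SE 0.46; edgeR adjusted p 0.125) and its libraries held 8 to 96 counts. It passed in edgeR without doxorubicin library 2. The groups did not overlap (6.39% of all symbols lay wholly higher), and doxorubicin library 2 was the lowest of its group.

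None of the remaining genes of that pathway passed in the edgeR test with the count filter and all libraries, while DESeq2 called 2 of the list, as given above. Plau, urokinase, was at 15.7 CPM in doxorubicin library 1 and at 1.91 to 4.54 CPM in the other 5 libraries. Tfpi, the inhibitor of the tissue factor pathway, Vwf, von Willebrand factor, and Procr, the protein C receptor, had log2 fold changes of 0.38, 0.36 and 0.61. Fga, a chain of the factor XIII substrate fibrinogen, was listed at 0 in every library, as were F7, Plaur, Serpinc1 and Cpb2.

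Macrophage markers were read beside F13a1. Of 23 listed genes 17 were tested, 0 passed and 3 had an unadjusted p under 0.05 in edgeR, all higher (4.0% of all symbols were), and DESeq2 called 0. The median log2 fold change was 0.31, and 16 of the 17 were above 0 (52.1% of all symbols). The 3 were Lyve1, Cd163 and Mrc1, surface receptors known from tissue macrophages. Folr2, another receptor of the list, had a log2 fold change of 0.08, and its groups overlapped. Lyve1, which lymphatic endothelium also makes, was at 4.96, 12.4 and 9.94 CPM in control and 19.3, 16.8 and 19.2 CPM in doxorubicin libraries 1 to 3. Cd163 was at 5.88 ± 3.48 CPM with saline and 12.8 ± 4.34 CPM with doxorubicin, and Mrc1 at 15.6 ± 8.63 and 27.7 ± 2.99 CPM (SD, n = 3). In control libraries 1 to 3 Cd163 was at 3.055, 9.77 and 4.83 CPM and Mrc1 at 5.73, 19.1 and 21.9 CPM. All 3 genes were lowest in control library 1. Their log2 fold changes were 1.02, 1.15 and 0.82, with edgeR adjusted p-values of 0.378, 0.492 and 0.586.

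Other macrophage genes were closer between the groups. C1qa, C1qb and C1qc, the chains of complement C1q, had log2 fold changes of 0.39, 0.41 and 0.35, and Csf1r, the receptor for the macrophage growth factor, 0.17. Cybb and Ptprc, the latter on 5 rows of the table, were listed at 0 in every library, and these zeros are not read as absence of leukocytes. The list summed to 277, 299 and 283 CPM in control libraries 1 to 3 and to 304, 492 and 315 CPM in doxorubicin libraries 1 to 3. The sum was highest in doxorubicin library 2, while F13a1 was highest in doxorubicin library 3. F13a1 was 3.44%, 6.85% and 3.71% of the sum in control and 5.07%, 4.95% and 10.02% in doxorubicin libraries 1 to 3, and these groups overlapped. By profile, Lyve1 was the macrophage gene nearest to F13a1, 388th of 8606 candidates, followed by Fcer1g at 1512th, Ctss at 1617th and Cd163 at 1901st.

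**Figure D4:**
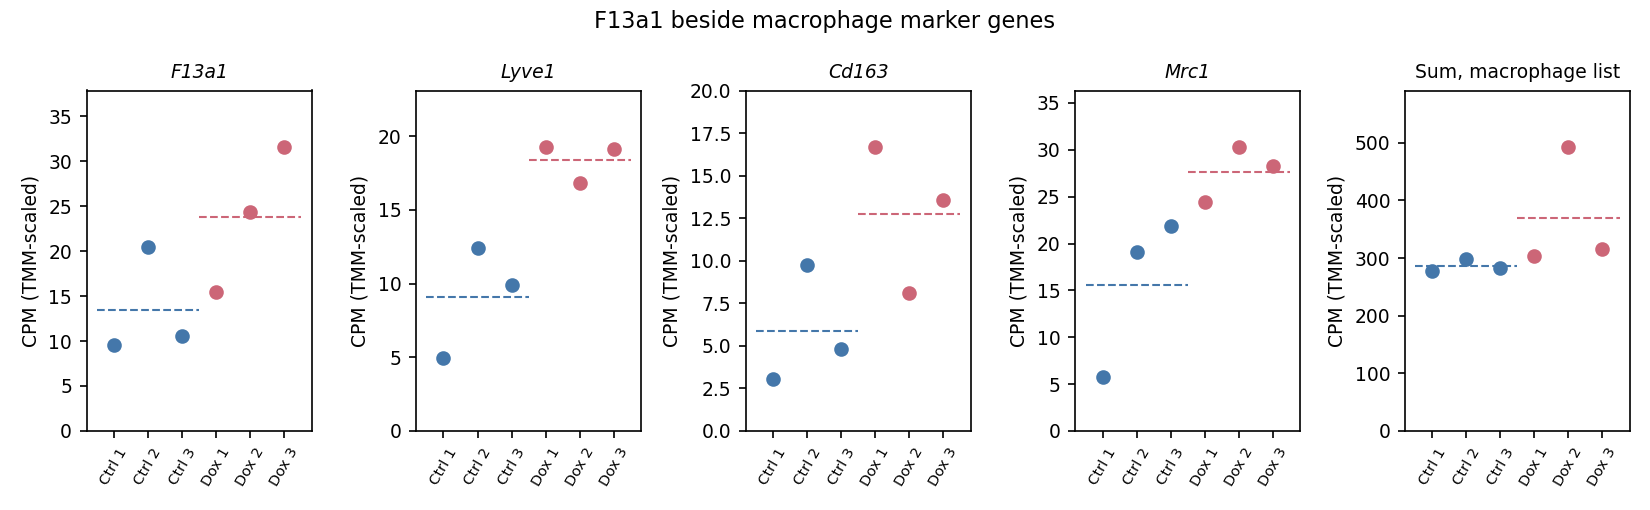
TMM-scaled CPM (vertical axes, from 0) of F13a1, of Lyve1, Cd163 and Mrc1, and of the sum over the macrophage list in control (Ctrl, blue) and doxorubicin (Dox, red) libraries. Points are libraries and dashed lines group means. The sum is highest in doxorubicin library 2 (492 CPM), where F13a1 is at 24.3 CPM, below its 31.5 CPM in doxorubicin library 3.

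The summed level of platelet markers, which megakaryocyte RNA would carry with F13a1, was highest in control library 1. Of its 98.5 CPM there, 82.5 CPM came from Pf4. Treml1, Ppbp and Gp9 were also highest in that library. Gp1ba and Alox12 were highest in doxorubicin library 1, and Gp5 and Selp in doxorubicin library 2. Pf4, platelet factor 4, the only tested gene of that list, was at 82.5, 18.2 and 9.66 CPM in control and 14.4, 10.9 and 18.0 CPM in doxorubicin libraries 1 to 3. Pf4 did not pass, with a log2 fold change of -1.33 (SE 0.80; edgeR adjusted p 0.727). Control library 1, which had the most Pf4, had the least F13a1, 9.55 CPM, but that library alone cannot show how these genes relate. Alox12, Treml1 and Selp had at most 17 counts in any library, and Gp1bb was at 0. In the erythroid list Hba-a3, an alpha globin, was at 35.3 ± 27.4 CPM with saline and 12.9 ± 5.63 CPM with doxorubicin (SD, n = 3), with 66.8 CPM in control library 1. It was 1 of 5 erythroid genes tested, 0 of which passed in edgeR or DESeq2, and the 1 with an unadjusted p under 0.05 (edgeR), against 4.11% of all symbols lower at that p. Hba-a2, Hbb and Slc4a1 had log2 fold changes of -1.07, -1.18 and -0.30. The part of macrophages, platelets and blood in the F13a1 values was not tested.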

How the data were processed

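Per the submitters' processing notes, the tools were FastQC, Trimmomatic, STAR and HTSeq and the build mRatBN7.2, and versions, counting mode, strand setting and annotation are not given in the sources used here. The authors deposited raw counts per annotated feature. From these, the 18473 rows were summed to 17487 symbols, and each member stood on 1 row. Groups came from the sample titles. The test was edgeR 4.0.16 (R 4.3.3) quasi-likelihood with TMM, robust dispersion and filterByExpr (minimum count 10, minimum total 15). Benjamini-Hochberg adjustment was over 9205 symbols. The test was run on simulated counts with planted changes larger than those of Tgm2 and F13a1. That check says nothing about changes of their size. Log2 CPM used a prior count of 2. Animals were separate, with nothing stated on litters.

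The members and the 14 gene lists were chosen with earlier results of these data known. Named genes were the members, their family with F13b, the 6 smallest p-values per pathway list, the 4 highest or nominally different markers per cell type, the 5 nearest profiles and the neighbours. DESeq2 1.42.0, limma 3.58.1 voom, other scalings and filters, a replicate block and leaving out each library were alternatives. Gene span correction and sample quality weights were added after seeing the data. For 1 tested gene each of the clotting and erythroid lists no values are reported here; both stay in the counts of their lists.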

Additional observations from a re-analysis of the deposited data

How the results depend on the processing

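The log2 fold changes of all 3 members kept their direction in each of 17 alternatives. For Tgm1, chosen because it was higher in every doxorubicin heart, the direction could hardly have come out otherwise. The log2 fold changes ranged from 2.12 to 2.83 for Tgm1, from 0.19 to 0.42 for Tgm2 and from 0.59 to 1.25 for F13a1. Tgm2 and F13a1 were past the adjusted threshold in 0 of the 17. The lowest adjusted p over these was 0.540 for Tgm2 and 0.304 for F13a1. Against 5 genes past the adjusted threshold (2 higher, 3 lower), library size only and voom gave 0 (713 and 740 at an unadjusted p under 0.05), non-robust dispersion 1, no filter 61 (36 higher, 25 lower), DESeq2 74 (46 higher, 28 lower), gene span correction 9 (6 higher, 3 lower) and voom with sample quality weights 14 (10 higher, 4 lower). Leaving out a library gave 0 to 35. Under library size only, the median over all genes was 0.10, against 0.02. With the replicate block 13 genes passed (9 higher, 4 lower), and the log2 fold changes were 2.45, 0.27 and 0.85 for Tgm1, Tgm2 and F13a1. Same-numbered libraries are different animals and did not deviate together (correlations of 0.0211, -0.185 and -0.0559 for numbers 1, 2 and 3, across genes).

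With sample quality weights the median of the cornified envelope list was -0.010, against 0.20, and that of the clotting list 0.089, against 0.36. Over the fits without a library, medians ran from -0.011 to 0.290 for the cornified envelope, from -0.022 to 0.230 for the Tgm2 partners, from 0.152 to 0.398 for the clotting list and from 0.033 to 0.179 for the inducers, and from -0.727 to -0.304 for Tgm4. The lowest cornified envelope and clotting medians came without control library 1. The cause was not tested. Depth limits Tgm1, at 8 to 15 counts per control library, and also the other family genes and F13b.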
